A study of Mus musculus with 11 samples.

Results

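The interleukin 7 (IL-7) receptor, the receptors Kit and Flt3, the Janus kinases and STAT5 were followed as 10 genes, taken by symbol from tables of 24319 genes in mouse leukemic and proB cells. The genes are Il7r, Il2rg, Crlf2, Kit, Flt3, Jak1, Jak2, Jak3, Stat5a and Stat5b, and all 10 were listed in every library and passed the filter on low values. RNA sequencing covered 11 libraries of the C57BL/6J strain in 3 groups. B-ALL is B cell acute lymphoblastic leukemia taken from the lymph nodes of 3 Ebf1+/- Pax5+/- mice, numbered 686, 713 and 760, each with 2 libraries. dHet proB is a short-term culture of Ebf1+/- Pax5+/- Rag2-/- fetal liver cells (3 libraries). These cells were isolated as c-Kit positive and grown over an OP9 stroma layer with IL-7 at 5 ng/ml, Flt3 ligand at 10 ng/ml and stem cell factor (SCF) at 10 ng/ml. wt proB is the fraction BC sort from bone marrow of mice with both copies of Ebf1, Pax5 and Rag2 (2 libraries), and these cells were not cultured. B-ALL and dHet proB therefore share the loss of 1 copy of Ebf1 and of Pax5, while Rag2, tissue, culture and disease change together between the groups and cannot be told apart. No age of the animals and no marker of the sort is given in the labels, which also do not say whether the dHet proB and wt proB libraries came from separate animals, so their spread may be technical. Library 3 of dHet proB has its number from the sample title, whereas its source name carries the number 2.

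IL-7 drives the survival and growth of early B cells in the mouse. It binds a receptor made of the IL-7 receptor alpha chain (Il7r) and the common gamma chain (Il2rg), which carry the kinases JAK1 and JAK3, and these phosphorylate STAT5A and STAT5B, transcription factors that then enter the nucleus. Kit, the receptor of SCF, and Flt3, the receptor of Flt3 ligand, are receptor tyrosine kinases of progenitor cells. PAX5 is known to repress Flt3 as cells commit to the B lineage.

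Levels are in FPKM, a read density per unit of transcript length and of sequencing, so levels of different genes can be compared. Means are given ± SD over n = 3 B-ALL mice (each the mean of its libraries), n = 3 libraries of dHet proB and n = 2 of wt proB. Differences are log2 folds of FPKM + 1 from limma, with the standard error (SE), and p-values were adjusted over all 11110 genes tested, with a threshold of 0.05. The sum of FPKM per library ran from 505261 to 638953, and 13251 to 14947 genes had a value above 0; the depth is unknown. All 12 B cell precursor markers examined, among them Cd79a and Vpreb1, had a mean of at least 1 FPKM in each group, and their sum was 7423 to 10992 FPKM in B-ALL, 10381 to 12994 in dHet proB and 9675 to 9793 in wt proB. In such bulk samples fewer cells of a type and less RNA per cell cannot be told apart.

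In short, Il7r, Jak1, Jak3, Stat5a and Stat5b passed no test between the groups, whereas Kit and Flt3 set dHet proB apart from B-ALL. Against wt proB, Kit passed in dHet proB only, and Flt3 passed in neither group. dHet proB had the highest Kit and the lowest Flt3, and the leukemias had more Flt3 and Il2rg and less Kit, Crlf2 and Jak2 than dHet proB. Between B-ALL and dHet proB, 2 of the 10 genes were higher and 3 lower, where 14.5% of all genes tested were higher and 11% lower in B-ALL (25.5% in all). Between B-ALL and wt proB, 0 were higher and 1 was lower, against 8.15% and 10.0% of all genes (18.2% in all). Between dHet proB and wt proB, 1 was higher and 0 lower, against 2.18% and 6.50% (8.68% in all), so counts in the comparisons with wt proB are near those of all genes. At an unadjusted p under 0.05 the 10 genes gave 5 in B-ALL against dHet proB, 2 in B-ALL against wt proB and 2 in dHet proB against wt proB, where all genes gave 40.2%, 35.0% and 22.5%. The comparisons share libraries and are not independent of each other. After rescaling to a common sum (TPM) the median log2 fold of all genes was -0.22 in place of -0.02 in B-ALL against wt proB, and -0.12 in place of 0.04 in B-ALL against dHet proB. The share of called genes that were higher was then 23.8% in place of 44.9% and 38.8% in place of 57.0%. Quantile normalization gave 46.5% in B-ALL against dHet proB, and 41.8% in place of 25.1% in dHet proB against wt proB. None of these scalings turned the direction of a called member.

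**Figure D1:**
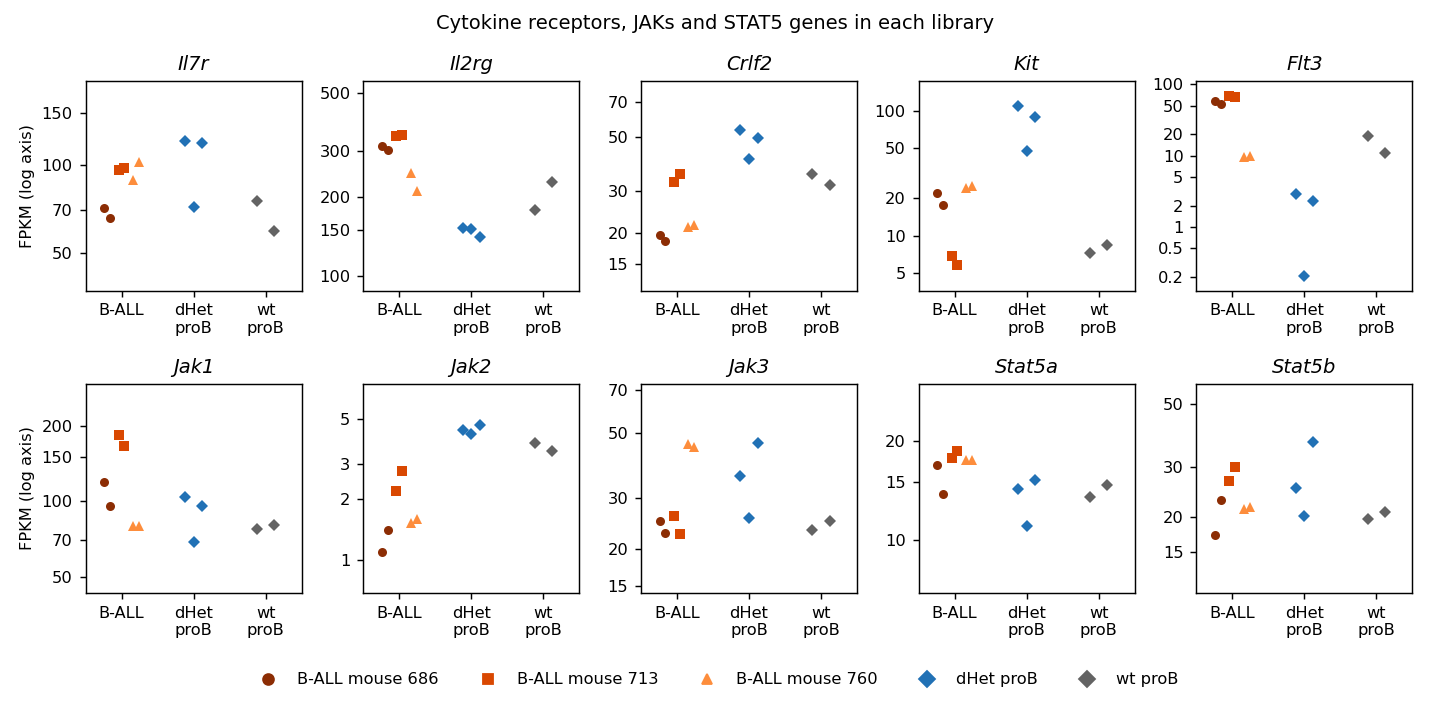
FPKM on a log axis of each of the 10 genes in every library, 1 panel per gene; B-ALL libraries are marked by mouse, and dHet proB and wt proB libraries are diamonds. Kit is highest in all 3 dHet proB libraries (47.5 to 108), where Flt3 is lowest (0.205 to 2.88).

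The receptor chains of IL-7 were considered first. Il7r, the alpha chain, had 71.2 and 65.5 FPKM in mouse 686, 95.5 and 97.5 in mouse 713, then 88.3 and 102 in mouse 760, against 120.4, 71.5 and 119 in the dHet proB libraries and 74.9 and 59.4 in those of wt proB. The groups overlapped: dHet proB held the highest libraries, but its library 2 was at the level of mouse 686. Mean Il7r was 86.7 ± 15.9 FPKM in B-ALL, 104 ± 27.7 in dHet proB and 67.2 ± 10.96 in wt proB. No neighbours in this order differed beyond the spread. The log2 fold was 0.35 in B-ALL against wt proB (95% interval -0.27 to 0.98, limma adjusted p = 0.390), -0.23 in B-ALL against dHet proB (-0.79 to 0.33, adjusted p = 0.515) and 0.59 in dHet proB against wt proB (-0.04 to 1.21, adjusted p = 0.252). Il7r passed in none of the 18 other settings of any of these comparisons.

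Il2rg, the common gamma chain shared with the receptors for IL-2, IL-4, IL-9, IL-15 and IL-21, was the most abundant of the 10 genes. It had 314 and 303 FPKM in mouse 686, 342 and 347 in mouse 713, then 247 and 212 in mouse 760, against 152, 151 and 141 in the dHet proB libraries and 179.6 and 229.6 in those of wt proB. Every B-ALL library was above every dHet proB library, and the dHet proB libraries lay closest together. Mean Il2rg was 294 ± 58.9 FPKM in B-ALL and 148 ± 6.17 in dHet proB, a log2 fold of 0.97 (SE 0.18, limma adjusted p = 0.00990). That call was kept in all 18 other settings, with log2 folds of 0.76 to 1.14. With 205 ± 35.3 FPKM, wt proB lay between them; the log2 fold of B-ALL against wt proB was 0.51 (adjusted p = 0.121) and that of dHet proB against wt proB -0.45 (adjusted p = 0.245), and neither passed. T cells and NK cells also use Il2rg. The sum of 10 T cell markers was 108 to 372 FPKM in B-ALL libraries. It was 50.7 to 71.3 in dHet proB and 59.7 to 69.8 in wt proB. That of 6 NK cell markers was 48.8 to 333, 8.03 to 35.2 and 37.5 to 42.5 in the same groups. Within these sums, Lck alone had 83.0 to 325 FPKM in B-ALL, and Nkg7 alone had 21.1 to 328. In B-ALL against wt proB, 4 of 9 T cell markers tested passed as higher and 1 as lower, against 8.15% and 10.0% of all genes. Of the 6 NK cell markers, 0 passed as higher there and 1 as lower. Against dHet proB, 7 of 9 and 3 of 6 passed as higher and 0 as lower. Cd3e, which T cells require for their receptor, had 1.18 to 5.41 FPKM in B-ALL, was listed at 0 in dHet proB and had 0.273 and 0.671 in wt proB. A mean of at least 1 FPKM was reached by 7 of the 10 T cell markers in B-ALL, 4 in dHet proB and 6 in wt proB, and by 4, 3 and 6 of the 6 NK cell markers. The part of such cells in the Il2rg difference was not tested.

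Within a library, Il2rg exceeded Il7r by a factor of 3.50 ± 1.05 in B-ALL, 1.52 ± 0.511 in dHet proB and 3.13 ± 1.04 in wt proB. The ratio was above 1 in every library, from 1.19 to 4.62.

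Crlf2 encodes the chain that joins the IL-7 receptor alpha chain to form the receptor for TSLP, a cytokine related to IL-7. It had 19.7 and 18.5 FPKM in mouse 686, 32.8 and 35.1 in mouse 713, then 21.2 and 21.6 in mouse 760, against 53.4, 40.7 and 49.7 in the dHet proB libraries and 35.1 and 31.8 in those of wt proB. All B-ALL libraries were below all dHet proB libraries, and mouse 713 reached the wt proB level. At 24.8 ± 7.97 FPKM in B-ALL and 47.9 ± 6.57 in dHet proB, Crlf2 was lower in B-ALL by a log2 fold of -0.96 (SE 0.22, limma adjusted p = 0.0188). It did not pass without mouse 686 (-0.80, adjusted p = 0.0661), mouse 760 (-0.88, adjusted p = 0.0523) or dHet proB library 1 (-0.88, adjusted p = 0.0711). Against the 33.5 ± 2.38 FPKM of wt proB, the log2 fold was -0.46 in B-ALL (adjusted p = 0.228) and 0.50 in dHet proB (adjusted p = 0.292). Without mouse 713 Crlf2 passed as lower in B-ALL than in wt proB (-0.70, adjusted p = 0.0352). Il7r exceeded Crlf2 by a factor of 3.62 ± 0.805 in B-ALL, 2.13 ± 0.331 in dHet proB and 2.001 ± 0.185 in wt proB.

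To place the receptor chains beside the factors altered in these mice, the promoters of Il7r and Il2rg are given from RefSeq, as 250 bases before and 50 after the start site. Capitals mark matches to a STAT word (TTCNNNGAA) or to an EBF1 word (TCCC and GGGA with any 2 bases between them), searched on both strands, each being its own reverse complement up to N.
Il7r promoter, GRCm38.p6 chr15:9529827-9530126, minus strand: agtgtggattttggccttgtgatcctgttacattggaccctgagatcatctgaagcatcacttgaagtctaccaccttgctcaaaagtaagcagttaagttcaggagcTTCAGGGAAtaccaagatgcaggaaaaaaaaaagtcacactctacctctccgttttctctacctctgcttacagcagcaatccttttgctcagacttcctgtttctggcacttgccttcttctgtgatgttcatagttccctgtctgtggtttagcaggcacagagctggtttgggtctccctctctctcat
Il2rg promoter, GRCm38.p6 chrX:101268206-101268505, minus strand: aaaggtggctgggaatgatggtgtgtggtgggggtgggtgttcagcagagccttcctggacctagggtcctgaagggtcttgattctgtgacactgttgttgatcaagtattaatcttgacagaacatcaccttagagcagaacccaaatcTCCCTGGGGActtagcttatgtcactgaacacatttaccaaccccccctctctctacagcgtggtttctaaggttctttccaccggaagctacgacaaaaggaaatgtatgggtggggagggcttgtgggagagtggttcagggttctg
All 10 genes had a promoter in that table. Of the 10, Il7r was the only gene with the STAT word, 142 bases before the start, and Il2rg the only one with the EBF1 word, 99 bases before it. The STAT word stands in 8.30% and the EBF1 word in 0.904% of all 32851 promoters of this length. The shorter words GTAAACA (FOXO) and GAGGAAGT (PU.1), searched on both strands, were in the promoter of none of the 10 genes, and in 3.65% and 3.20% of all promoters. A match describes the letters and is not a binding site, and a lack of one says nothing about the factor.

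Kit and Flt3 differed most. Kit, the SCF receptor, had 22.1 and 17.5 FPKM in mouse 686, 6.90 and 5.79 in mouse 713, then 24.0 and 25.1 in mouse 760, against 108, 47.5 and 89.9 in the dHet proB libraries and 7.27 and 8.42 in those of wt proB. Every dHet proB library was above every other library, while mouse 713 lay below wt proB and the other leukemias above it. Mean Kit was 16.9 ± 9.45 FPKM in B-ALL, 81.9 ± 31.2 in dHet proB and 7.84 ± 0.815 in wt proB. B-ALL was lower than dHet proB by a log2 fold of -2.32 (SE 0.48, limma adjusted p = 0.0129), and dHet proB was higher than wt proB by 3.15 (SE 0.54, adjusted p = 0.00942). The dHet proB cells were chosen for Kit protein at the start and kept with its ligand. The part of either in the Kit level was not tested. The first call was lost without dHet proB library 1 (-2.08, adjusted p = 0.0530), and the second without wt proB library 1 (3.06, adjusted p = 0.135) and also without library 2 (3.25, adjusted p = 0.112). In B-ALL against wt proB the log2 fold was 0.83 (95% interval -0.41 to 2.08, adjusted p = 0.311). It was 1.38 without mouse 713 and then passed (adjusted p = 0.0351). Mast cells also carry Kit. The sum of 8 mast cell and basophil markers was 1.47 to 6.87 FPKM in B-ALL, 0 to 0.294 in dHet proB, where 7 of the 8 were listed at 0 in every library, and 4.99 to 10.7 in wt proB.

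Flt3 had 58.9 and 52.9 FPKM in mouse 686, 69.6 and 67.0 in mouse 713, then 9.53 and 10.0 in mouse 760, against 2.88, 0.205 and 2.33 in the dHet proB libraries and 18.6 and 10.8 in those of wt proB. All B-ALL libraries were above all dHet proB libraries, although those of mouse 760 were below wt proB. The mean was 44.7 ± 30.8 FPKM in B-ALL, 1.81 ± 1.41 in dHet proB and 14.7 ± 5.54 in wt proB. Flt3 rose in B-ALL against dHet proB by a log2 fold of 3.80 (SE 0.74, limma adjusted p = 0.0102), above 99.7% of all folds in that comparison. It passed in all 18 other settings, with log2 folds of 3.28 to 4.69. Against wt proB the log2 fold in B-ALL was 1.195 (95% interval -0.71 to 3.10, adjusted p = 0.339). In dHet proB against wt proB it was -2.61 (-4.51 to -0.71, adjusted p = 0.101). This last value passed in 3 of 18 other settings: without mouse 760 (adjusted p = 0.0198), with only the groups compared in the fit (adjusted p = 0.0256) and with the mouse as a random effect (adjusted p = 0.0485). The dHet proB cells had grown with Flt3 ligand, whose part in the Flt3 level was not tested.

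Flt3 also marks plasmacytoid dendritic cells (pDC). The sum of 10 pDC markers was 336 to 2644 FPKM in B-ALL, 1045 to 1098 in dHet proB and 2470 to 3139 in wt proB. Within it, Ly6d alone had 168 to 2196 FPKM in B-ALL, 768 to 837 in dHet proB and 1284 to 1495 in wt proB. Of these markers, Siglech, the pDC surface receptor, had 0.0150 to 1.65 FPKM in B-ALL, was listed at 0 in dHet proB and had 132 and 77.3 in wt proB. Klk1 was listed at 0 in every B-ALL and dHet proB library. Of the 10 markers, 6 had a mean of at least 1 FPKM in B-ALL, 7 in dHet proB and 10 in wt proB. The part of pDC in the Flt3 level of wt proB or of B-ALL was not tested. Csf1r, a myeloid receptor of the same kinase class as Kit and Flt3, also rose in B-ALL against dHet proB, with 4.76 ± 3.81 FPKM in B-ALL and 0, 0 and 0.0108 FPKM in the dHet proB libraries (log2 fold 2.23, limma adjusted p = 0.0183). It did not pass without dHet proB library 1 (adjusted p = 0.0611). The sum of 13 myeloid markers, Csf1r among them, was 29.6 to 264 FPKM in B-ALL, 14.7 to 51.8 in dHet proB and 543 to 563 in wt proB.

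**Figure D2:**
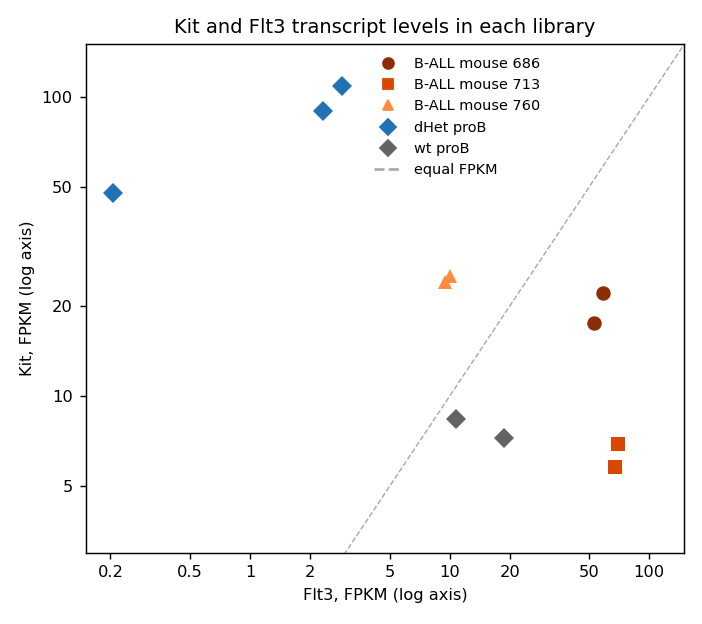
Kit FPKM against Flt3 FPKM in each of the 11 libraries, both on log axes, with a dashed line at equal levels. The 3 dHet proB libraries and both libraries of mouse 760 lie above the line, and those of mice 686 and 713 and of wt proB below it.

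Set against each other within a library, Kit exceeded Flt3 by a factor of 37.6 to 232 in dHet proB. Flt3 exceeded Kit in mouse 713, at a ratio of up to 11.6, and in wt proB, at ratios of 2.56 and 1.28. Mouse 760 was the leukemia with more Kit than Flt3, by a factor of up to 2.52.

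The promoters of Kit and Flt3, the pair with the widest range among the 10 genes, are shown as RefSeq gives them. Both are free of the 4 words above, so no letter is in capitals.
Kit promoter, GRCm38.p6 chr5:75574737-75575036, plus strand: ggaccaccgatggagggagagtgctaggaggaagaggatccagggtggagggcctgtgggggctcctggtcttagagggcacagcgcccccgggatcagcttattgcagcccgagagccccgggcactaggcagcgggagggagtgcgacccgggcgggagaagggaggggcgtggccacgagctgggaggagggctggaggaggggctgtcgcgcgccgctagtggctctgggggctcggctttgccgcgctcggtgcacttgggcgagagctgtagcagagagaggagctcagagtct
Flt3 promoter, GRCm38.p6 chr5:147400440-147400739, minus strand: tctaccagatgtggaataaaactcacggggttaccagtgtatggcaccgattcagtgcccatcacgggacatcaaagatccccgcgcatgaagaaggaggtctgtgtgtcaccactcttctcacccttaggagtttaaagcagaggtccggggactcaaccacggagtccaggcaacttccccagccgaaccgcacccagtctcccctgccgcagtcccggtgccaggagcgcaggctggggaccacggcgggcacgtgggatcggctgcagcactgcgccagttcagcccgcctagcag
Their G and C content was 69.0% and 61.0%, with 20 and 18 CG dinucleotides, where the median promoter had 52.7% and 7. A second Kit start in the table lies 4 bases further on. The Il7r promoter, at 45.7% and 1 CG, was the poorest in CG of the 10 genes.

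The kinases came next. Jak1, which binds the IL-7 receptor alpha chain, had 119 and 95.6 FPKM in mouse 686, 184 and 166 in mouse 713, then 79.6 and 79.8 in mouse 760, against 104, 68.6 and 95.4 in the dHet proB libraries and 77.5 and 80.4 in those of wt proB. Mouse 713 stood above all other libraries, while mouse 760 was at the wt proB level. Mean Jak1 was 121 ± 49.0 FPKM in B-ALL, 89.3 ± 18.5 in dHet proB and 79.0 ± 2.02 in wt proB. Its log2 folds of 0.53 in B-ALL against wt proB (limma adjusted p = 0.279), 0.37 in B-ALL against dHet proB (adjusted p = 0.370) and 0.15 in dHet proB against wt proB (adjusted p = 0.834) did not pass.

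Jak3, the partner of the common gamma chain, had 25.0 and 22.8 FPKM in mouse 686, 26.0 and 22.6 in mouse 713, then 45.9 and 44.7 in mouse 760, against 35.6, 25.6 and 46.0 in the dHet proB libraries and 23.3 and 25.0 in those of wt proB. Mouse 760 alone among the leukemias reached the upper dHet proB values. With means of 31.2 ± 12.2 FPKM in B-ALL, 35.7 ± 10.2 in dHet proB and 24.2 ± 1.18 in wt proB, Jak3 passed in no comparison (log2 folds 0.29, -0.22 and 0.51 in B-ALL against wt proB, B-ALL against dHet proB and dHet proB against wt proB, limma adjusted p = 0.566, 0.617 and 0.421). The first of these was -0.01 without mouse 760.

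Jak2, which serves TSLP, erythropoietin and other cytokine receptors, was the least abundant of the 10 genes in B-ALL and wt proB. It had 1.10 and 1.40 FPKM in mouse 686, 2.19 and 2.77 in mouse 713, then 1.52 and 1.603 in mouse 760, against 4.41, 4.195 and 4.66 in the dHet proB libraries and 3.81 and 3.46 in those of wt proB. Every B-ALL library was below every proB library, and the proB groups lay within a narrow band. Mean Jak2 fell to 1.77 ± 0.639 FPKM in B-ALL, against 4.42 ± 0.231 in dHet proB (log2 fold -0.998, SE 0.20, limma adjusted p = 0.0110), a call kept in all 18 other settings (log2 folds -1.34 to -0.86). Against the 3.63 ± 0.247 FPKM of wt proB the log2 fold was -0.77 (SE 0.22, adjusted p = 0.0475). That call was kept in 5 of 18 other settings. It was lost in 7 of the 8 that left out a mouse or library: without mouse 686 (-0.63, adjusted p = 0.133), mouse 760 (-0.73, adjusted p = 0.0994), dHet proB library 1, 2 or 3 (-0.77, adjusted p = 0.0729, 0.0567 and 0.0525), wt proB library 1 (-0.72, adjusted p = 0.243), and, with -0.83 and an adjusted p of 0.220, wt proB library 2. In dHet proB against wt proB the log2 fold was 0.23 (adjusted p = 0.620). At such levels a pseudocount of 1 shrinks the fold: with 0.1 it was -1.34 against dHet proB and -1.06 against wt proB.

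Between the kinases, Jak1 exceeded Jak2 by a factor of 69.0 ± 17.4 in B-ALL, 20.1 ± 3.64 in dHet proB and 21.8 ± 2.04 in wt proB. Every B-ALL library, from 49.8 to 108, was above the highest proB value of 23.6. Jak1 exceeded Jak3 by 4.48 ± 2.72 in B-ALL, 2.56 ± 0.440 in dHet proB and 3.27 ± 0.0764 in wt proB, and the lowest ratio, 1.74, was in mouse 760.

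STAT5A and STAT5B come from neighbouring genes with near-identical coding sequence. Stat5a had 16.9 and 13.8 FPKM in mouse 686, 17.8 and 18.7 in mouse 713, then 17.5 and 17.5 in mouse 760, against 14.3, 11 and 15.2 in the dHet proB libraries and 13.5 and 14.7 in those of wt proB. Its groups overlapped, and its range over all libraries, a factor of 1.70, was the narrowest of the 10 genes. Means were 17.0 ± 1.49 FPKM in B-ALL, 13.5 ± 2.22 in dHet proB and 14.1 ± 0.876 in wt proB. The log2 fold was 0.25 in B-ALL against wt proB (95% interval -0.18 to 0.68, limma adjusted p = 0.370), 0.32 in B-ALL against dHet proB (-0.06 to 0.70, adjusted p = 0.186) and -0.07 in dHet proB against wt proB (-0.50 to 0.36, adjusted p = 0.875).

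Stat5b had 17.2 and 22.8 FPKM in mouse 686, 26.6 and 29.8 in mouse 713, then 21.2 and 21.6 in mouse 760, against 25.3, 20.2 and 36.7 in the dHet proB libraries and 19.6 and 20.8 in those of wt proB. Library 3 of dHet proB was the highest, and the groups overlapped. Mean Stat5b was 23.2 ± 4.39 FPKM in B-ALL, 27.4 ± 8.47 in dHet proB and 20.2 ± 0.826 in wt proB, with log2 folds of 0.17 in B-ALL against wt proB, -0.21 in B-ALL against dHet proB and 0.38 in dHet proB against wt proB (limma adjusted p = 0.677, 0.546 and 0.455). The sum of Stat5a and Stat5b was 40.2 ± 5.66 FPKM in B-ALL, 40.9 ± 10.46 in dHet proB and 34.3 ± 1.70 in wt proB. Stat5b exceeded Stat5a in every library, by 1.36 ± 0.168 in B-ALL, 2.004 ± 0.351 in dHet proB and 1.44 ± 0.0306 in wt proB.

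How far reads can tell these genes apart was read from the longest coding transcript of each gene in GENCODE M21 (build GRCm38). Of the words of 50 bases in the Stat5a transcript, 16.4% also occur in another gene, Stat5b or Stat3, and of those in Stat5b 11.8% occur in Stat5a. The longest stretch that Stat5a and Stat5b share without a difference is 324 bases long and starts at base 904 of the Stat5a and base 1058 of the Stat5b transcript. Its first 300 bases (chromosome 11) are shown because a fragment within them fits both genes.
Stat5a and Stat5b shared stretch: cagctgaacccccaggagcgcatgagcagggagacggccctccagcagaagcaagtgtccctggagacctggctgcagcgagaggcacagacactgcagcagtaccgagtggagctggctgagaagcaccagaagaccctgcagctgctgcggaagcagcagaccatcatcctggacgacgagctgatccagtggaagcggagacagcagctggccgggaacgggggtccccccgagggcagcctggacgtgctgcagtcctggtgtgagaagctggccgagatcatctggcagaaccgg
How the authors' counting divided such fragments is not stated in the labels, so the split between Stat5a and Stat5b is less certain than their sum. Il2rg shares 42.0% of its words with Gm20489, an overlapping same-strand gene model that was not analysed here, and Jak3 shares 8.94% with Insl3, which had at most 0.849 FPKM in any library. The transcripts of Crlf2, Kit, Flt3, Jak1 and Jak2 shared no word with another gene. Stat3 overlaps Stat5a, and Raver2 overlaps Jak1, on the opposite strand. Raver2 had at most 0.146 FPKM, while Stat3 had 36.8 to 84.5 in B-ALL, 44.2 to 82.0 in dHet proB and 58.4 to 73.7 in wt proB. The labels do not state whether strand was used in counting.

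**Figure D3:**
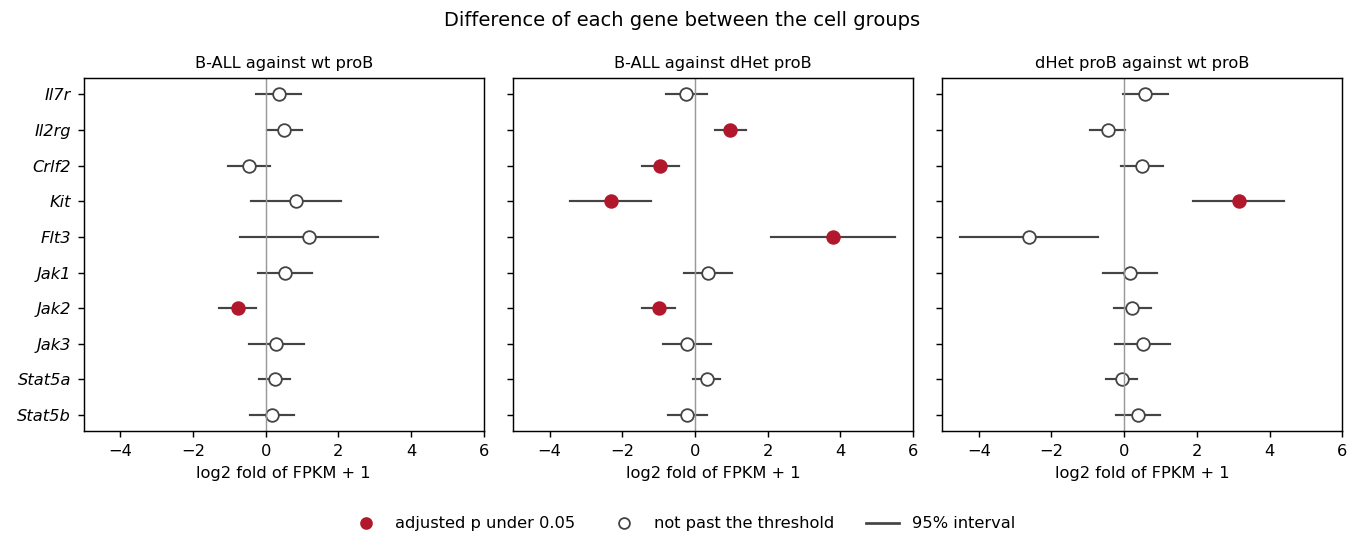
Log2 fold of FPKM + 1 for each of the 10 genes in the 3 comparisons, with 95% intervals from limma; filled points passed an adjusted p of 0.05. In B-ALL against dHet proB, 5 of 10 passed, from -2.32 for Kit to 3.80 for Flt3, and in each of the other comparisons 1 passed.

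Counted over libraries, the 10 genes gave the same picture for B-ALL against dHet proB. For 2 genes every B-ALL library was higher than every dHet proB library, and for 3 every one was lower, against 19.5% and 15.5% of all genes. In dHet proB against wt proB, 4 genes (Crlf2, Kit, Jak2 and Jak3) were higher in every dHet proB library and 2 (Il2rg and Flt3) lower, against 18.9% and 24.1% of all genes. Of these 6, only Kit passed the limma test. Between B-ALL and wt proB, Jak2 alone did not overlap, against 23.5% higher and 24.7% lower of all genes. A permutation test on 1 gene could not go below p = 0.1 with 3 against 3, or 0.2 with 3 against 2, so the calls given here draw on limma's pooling of the spread over genes.

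The leukemias were then compared with each other by limma's F test over the 11 libraries, which sets the mice against the spread between libraries and not between animals. Of the 10 genes, 7 differed among the mice, against 22.3% of the 11293 genes tested there. Il7r (limma adjusted p = 0.277), Stat5a (adjusted p = 0.573) and Stat5b (adjusted p = 0.340) did not pass, although Il7r did without dHet proB library 2 (adjusted p = 0.0369). Flt3 had the widest difference between mice, 2.68 on the log2 scale (adjusted p = 0.00558), with means of 55.9 FPKM in mouse 686, 68.3 in mouse 713 and 9.78 in mouse 760. Kit followed at 1.80 (adjusted p = 0.00663), and was lowest in mouse 713 at 6.34 FPKM, against 19.8 in mouse 686 and 24.6 in mouse 760. Jak1 (1.12, adjusted p = 0.00759) and Crlf2 (0.80, adjusted p = 0.00784) were highest in mouse 713. Jak3 (0.90, adjusted p = 0.0280) was highest in mouse 760 and Jak2 (0.63, adjusted p = 0.0273) in mouse 713, and Il2rg (0.59, adjusted p = 0.0411) was lowest in mouse 760. Leaving out a library of mouse 713 ended the call of Crlf2 (adjusted p = 0.0585 without library 1 and 0.0959 without library 2), of Kit (0.0725 without library 2) and of Jak1 (0.0755 without library 1), and that of Flt3 was lost without library 1 of mouse 760 (0.0525) and with a pseudocount of 0.1 (0.0851). The calls of Il2rg, Jak2 and Jak3 held in 4, 6 and 4 of the 11 settings that left out a library, with adjusted p up to 0.244, 0.254 and 0.159; each was lost without either library of mouse 713 and without either of mouse 760. After TPM none of the 3 passed (adjusted p = 0.0678 for Il2rg, 0.0736 for Jak2 and 0.0540 for Jak3). Il2rg also did not pass with quantile normalization (adjusted p = 0.0707) or with the library number as a block (adjusted p = 0.0592).

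The genes most like the receptors across the 8 units (3 mice, 3 dHet proB and 2 wt proB libraries) were sought among 7804 genes. Flt3 was most like P2ry13 (Pearson r 0.99), Tlr7 (0.98) and Ifi30 (0.96). P2ry13 had 27.2 to 44.3 FPKM in mice 686 and 713, 4.11 and 5.18 in mouse 760, 0.102 to 2.36 in the dHet proB libraries and 10.6 and 5.62 in those of wt proB. Kit was most like Mbtd1 (0.98), Renbp (0.98) and Acot13 (0.97), and Il7r most like Parp9 (0.98), Fam109a (0.94) and Sash3 (0.93). These correlations describe 8 units that fall into 3 groups.

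The other genes of the pathway were counted in lists. Most of the calls against wt proB named here rest on both wt proB libraries: without 1 of these, 15 of 16 were lost in B-ALL against wt proB, Ifngr1 being the exception, and 10 of 10 in dHet proB against wt proB. Of 9 ligand genes only Il15 and Flt3l were high enough to test. Among those, Il15 was lower in B-ALL, at 0.541 ± 0.621 FPKM against 2.06 ± 0.381 in dHet proB (log2 fold -1.06, limma adjusted p = 0.0290) and 4.44 ± 0.738 in wt proB (-1.89, adjusted p = 0.00631). The first of these calls was kept in 9 of 18 other settings and lost without either mouse 686 or 713, dHet proB library 1 or 3, or either wt proB library (adjusted p up to 0.0983). The second was lost without either wt proB library. Flt3l passed in no comparison. Il7 had at most 0.315 FPKM, Kitl (the SCF gene) at most 0.330 and Tslp at most 0.472 in any library, and Tslp was listed at 0 in all B-ALL libraries.

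Of 17 other cytokine receptor chains tested, 2 were higher and 3 lower in B-ALL than in dHet proB, where 25.5% of all genes passed in either direction. Ifngr1, a chain of the interferon gamma receptor, had 365 ± 15.4 FPKM in B-ALL and 99.8 ± 25.9 in dHet proB (log2 fold 1.89, limma adjusted p = 0.00116). Il2rb, which pairs with the common gamma chain for IL-2 and IL-15, averaged 2.73 ± 1.204 FPKM in B-ALL, with a listed value of 0 in all 3 dHet proB libraries. Ifnar1 (-0.98, adjusted p = 0.00863), Il10rb (-0.82, adjusted p = 0.0116) and Il15ra (-1.31, adjusted p = 0.0472, not past the threshold in 10 of 18 other settings) were lower. Against wt proB, 2 chains were higher in B-ALL, Ifngr1 (61.3 ± 3.94 FPKM in wt proB, log2 fold 2.55, adjusted p = 0.000415) and Il10ra (1.49, adjusted p = 0.0371, not past the threshold in 7 of 18 other settings), and 2 were lower, Csf2ra (-1.52, adjusted p = 0.00523) and Ifnar2 (-0.99, adjusted p = 0.00862), where 18.2% of all genes passed. In dHet proB against wt proB, Ifnar1 was higher (0.87, adjusted p = 0.0347, kept in 10 of 18 other settings) and 4 chains were lower, the largest falls being in Il21r (-2.19, adjusted p = 0.0308), Il2rb (adjusted p = 0.0270) and Ifnar2 (-1.18, adjusted p = 0.00490), where 8.68% of all genes passed. The call of Il2rb was kept in 10 and that of Il21r in 13 of the 18 other settings.

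Among Tyk2 and the other STAT genes, 0 of 6 passed in B-ALL against dHet proB or in dHet proB against wt proB. Of all genes, 25.5% and 8.68% passed there. In B-ALL against wt proB, where 8.15% of all genes were higher, Stat4, which acts downstream of IL-12, was higher. It had 40.7 ± 11.05 FPKM in B-ALL and 17.3 ± 1.11 in wt proB (log2 fold 1.16, limma adjusted p = 0.0267), and did not pass without mouse 686.

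Among 21 negative regulators, 2 were higher and 4 lower in B-ALL than in dHet proB, against 14.5% and 11% of all genes. The phosphatase genes Dusp6, at 79.0 ± 46.4 FPKM in B-ALL and 15.7 ± 10.0 in dHet proB (log2 fold 2.29, limma adjusted p = 0.0150), and Ptpn6, at 217 ± 60.6 and 70.7 ± 16.5 (1.598, adjusted p = 0.00519), were the higher ones. Dusp6 and Ptpn6 were lower in dHet proB than in wt proB (-2.49, adjusted p = 0.0306, and -1.30, adjusted p = 0.0269), where 6.50% of all genes were lower. Lower in B-ALL than in dHet proB were Pias3 (-0.68), Pias1 (-0.58) and Pias2 (-0.55), whose products inhibit STAT proteins, and Pias4 (-0.52), named after its value was seen. Of 18 other settings, Dusp6 and Ptpn6 passed in all 18 as higher in B-ALL than in dHet proB, while Pias1 passed in 15, Pias3 in 9 and Pias2 in 6. Pias2 had an adjusted p of up to 0.298, with the mouse as a random effect. Pias3 (-0.94) and Pias1 (-0.61) were also the 2 lower in B-ALL than in wt proB, where 10.0% of all genes were lower. Neither of these 2 passed there without mouse 686 or mouse 760. Of 16 adaptor and PI3 kinase genes, Gab1, Akt2 and Pik3ca were lower in B-ALL than in dHet proB (-1.69, -0.67 and -0.62), and Pik3ca was also lower than in wt proB (-0.63). In dHet proB against wt proB, Gab1 (2.02) and Sh2b1 (1.14) passed as higher, as did 2.18% of all genes. Sh2b1 passed in 4 and Gab1 in 12 of 18 other settings there, and Gab1 did not pass without dHet proB library 1 or 3. Pik3ca passed in 9 of 18 other settings against dHet proB and in 6 against wt proB, and neither Gab1 nor Akt2 passed against dHet proB without mouse 686 or dHet proB library 1.

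Of 13 genes known as STAT5 targets, 1 was lower in B-ALL than in dHet proB, 3 were lower in B-ALL than in wt proB, and 1 was higher in dHet proB than in wt proB. Of all genes, 11%, 10.0% and 2.18% passed in these directions. Bcl2l1, a survival gene, had 67.8 ± 32.4 FPKM in B-ALL, 236 ± 6.74 in dHet proB and 231 ± 89.7 in wt proB (log2 fold -1.89, limma adjusted p = 0.00711, and -1.81, adjusted p = 0.0142). Ccnd3 (-1.66, adjusted p = 0.0108) and Mcl1 (-1.15, adjusted p = 0.0124) were lower in B-ALL than in wt proB. Socs2, which STAT5 induces, had 85.9, 146 and 817 FPKM in dHet proB against 21.97 and 20.98 in wt proB (3.28, adjusted p = 0.0400), with library 3 far above the others. That call was kept in 11 of 18 other settings and was lost without mouse 686, mouse 760 or dHet proB library 2. Cish, another gene that STAT5 induces, is named although it passed in no comparison. It had 4.83, 9.44 and 82.4 FPKM in the same dHet proB libraries. Stat5b had 25.3, 20.2 and 36.7 FPKM there, with libraries 1 and 2 in the other order than for Socs2 and Cish. A link between these levels was not tested. The B-ALL libraries had 115 to 154 FPKM of Socs2 and 17.0 to 28.6 of Cish, and wt proB had 2.96 and 1.92 of Cish. In both genes every B-ALL library was above both wt proB libraries, as in 23.5% of all genes, but neither gene passed as higher there. The median log2 fold of the list was -0.22 in B-ALL against dHet proB, 0.00 in B-ALL against wt proB and -0.07 in dHet proB against wt proB, beside 0.04, -0.02 and -0.04 for all genes.

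Of 11 factors known to act on Il7r, 6 were lower in B-ALL than in dHet proB, 5 lower than in wt proB, and 0 differed between dHet proB and wt proB. Of all genes, 11% were lower in the first of these comparisons and 10.0% in the second. The list was not split by whether a factor activates or represses Il7r. The median log2 fold of the list was -0.83, -0.78 and 0.05, beside 0.04, -0.02 and -0.04 for all genes. Foxo1, which activates Il7r, had 12.96 ± 6.14 FPKM in B-ALL, 41.2 ± 5.32 in dHet proB and 34.8 ± 0.781 in wt proB (log2 fold -1.77, limma adjusted p = 0.00522, and -1.54, adjusted p = 0.0143). Ets1 (-1.60 and -1.05) was lower in both comparisons as well, as was Ebf1 against wt proB (-1.19, adjusted p = 0.0203) and Gfi1 against dHet proB (-1.26, adjusted p = 0.00437). B-ALL cells lack 1 copy of Ebf1 and wt proB cells do not. The part of this in the Ebf1 level was not tested. The call of Foxo1 against wt proB was lost with only library 2 of each mouse (adjusted p = 0.0641), and with the mouse as a random effect Foxo1 passed neither against wt proB (adjusted p = 0.275) nor against dHet proB (adjusted p = 0.141). Gfi1 was lost in that setting too (adjusted p = 0.131). Ets1 passed in all 18 other settings against dHet proB and in 9 against wt proB, and Ebf1 did not pass against wt proB without mouse 686. Il7r itself passed in neither comparison.

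**Figure D4:**
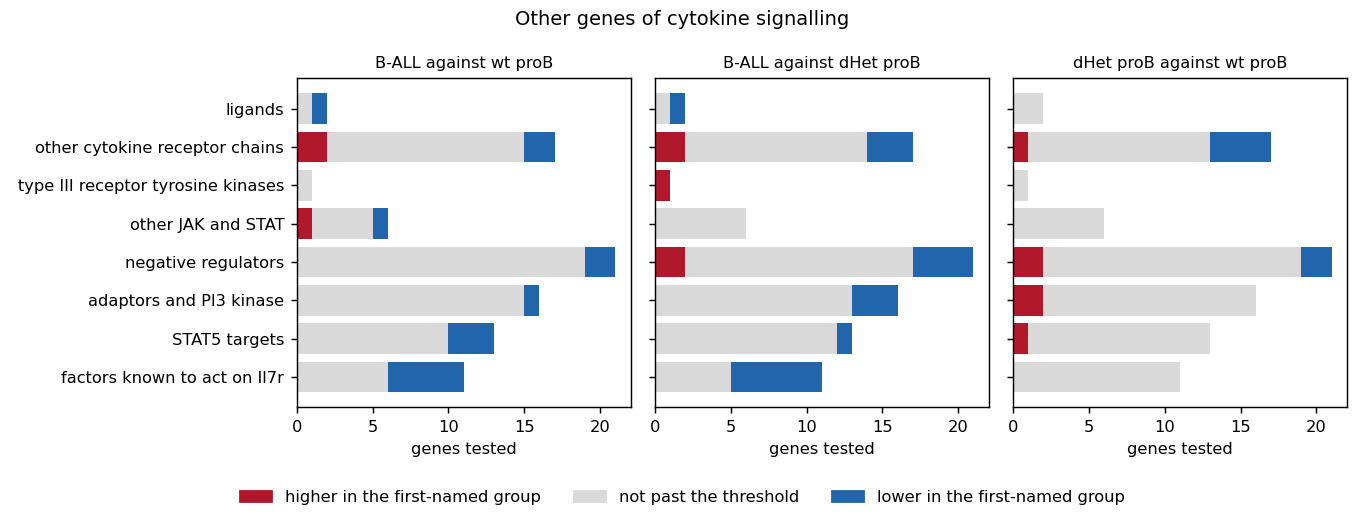
Number of genes tested in each list of other cytokine signalling genes, split into higher, not past the threshold and lower in the group named first, for the 3 comparisons. In the list of factors known to act on Il7r, 6 of 11 were lower in B-ALL than in dHet proB and 5 of 11 lower than in wt proB.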

How the data were processed

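RNA was extracted from leukemic cells, cultured dHet proB cells and sorted wt proB cells. Per the submitters' processing notes, the authors worked on mouse build mm9 with the aligner STAR 2.5.3a and with Cuffnorm 2.2.1, Cuffdiff and Cufflinks 2.2.1, after bcl2fastq (2.20.0.422, with 0.3.1 also listed). They deposited 1 table of FPKM per library. No source used here gives the gene annotation or the library scaling. The tables hold no counts, so depth is unknown and no counting error is given. FPKM were transformed to log2(FPKM + 1), the 2 libraries of a mouse were averaged, and genes with FPKM of at least 1 in 2 or more of 8 units were kept. limma 3.58.1 (R 4.3.3) was fitted to all 3 groups with a mean-variance trend, two-sided, with Benjamini and Hochberg adjustment at 0.05. The fit was tested on simulated data. Promoters came from RefSeq (GRCm38.p6) and transcripts from GENCODE M21, both of another build than the tables. The 10 genes, the lists and the rule for naming genes (every member, and up to 3 genes per list and direction that passed, and for Il7r, Kit and Flt3 the 3 most correlated genes with a mean of at least 5 FPKM) were chosen with earlier results of these data known. Alternatives were the pseudocount, no filter, TPM, quantile normalization, each mouse or library left out, 1 library per mouse, the mouse as a random effect, a replicate block, the groups compared only and no trend. Library numbers may pair the libraries of the leukemic mice, as the deviations of same-numbered libraries correlated in all 3 pairs of mice (r 0.13 to 0.64). With 2 libraries per mouse, the deviations of library 2 mirror those of library 1. Each pair of mice therefore gives 1 value, which cannot settle whether the numbers pair libraries. Between different groups r was -0.13 to 0.11. The main fits used no block. A result that the rule for naming genes selects is not reported here.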

Additional observations from a re-analysis of the deposited data

How the results depend on the processing

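Of 30 values (10 genes in 3 comparisons), 7 passed, and 3 of these passed in all 18 other settings: Il2rg, Flt3 and Jak2 in B-ALL against dHet proB. Of the 45 calls of list genes, 9 passed in every setting and 0 changed sign. Signs changed in 6 of 540 values, none of them called. They were Stat5b in B-ALL against wt proB after TPM (-0.025), Jak3 in the same comparison without mouse 760 (range -0.0056 to 0.44 over the settings that left out a mouse or library), Stat5a in dHet proB against wt proB with quantile normalization (0.0069) and without dHet proB library 2 (range -0.16 to 0.062), and Stat5b in B-ALL against dHet proB with the replicate block (0.017) and without dHet proB library 3 (range -0.40 to 0.017). Jak2 in B-ALL against wt proB also lost its call with a pseudocount of 0.1 (adjusted p = 0.0539), no filter (0.0786), quantile normalization (0.108), library 2 of each mouse (0.0741), the mouse as a random effect (0.0504) and the groups compared only (0.0745); the cause was not tested.

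Leaving out 1 mouse or library gave 61 to 1113 genes higher and 134 to 1359 lower in B-ALL against wt proB (905 and 1112 with all), 810 to 1664 and 582 to 1301 in B-ALL against dHet proB (1614 and 1218), 13 to 328 and 63 to 923 in dHet proB against wt proB (242 and 722), and 1302 to 3430 genes differing among the mice (2513). TPM gave 529 higher and 1695 lower in B-ALL against wt proB, quantile normalization 456 higher and no filter 1181 lower in dHet proB against wt proB.

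Between groups no pairing by library number was seen: of 14 pairs with the same number, 3 had deviations correlated above 0.1 (-0.13 to 0.11). A leukemic mouse and wt proB give the same value for both numbers, so the 14 are not all separate values. The replicate block gave 1132 genes higher and 1201 lower in B-ALL against wt proB, 1477 and 925 in B-ALL against dHet proB, 185 and 731 in dHet proB against wt proB and 3118 among the mice. It changed no call of the 10 genes between groups; among the mice it ended the call of Il2rg (adjusted p = 0.0592) and no other of the 10. Of the 45 calls of list genes named, 10 were lost with the block, among them Foxo1 against wt proB (0.0734), Il15 (0.0599), Il15ra (0.0885) and Pias2 (0.246) in B-ALL against dHet proB, and Gab1 (0.0615) and Sh2b1 (0.114) in dHet proB against wt proB.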

Other observations

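Within each leukemic mouse, library 1 had less Jak2 than library 2 (1.10 against 1.40, 2.19 against 2.77 and 1.52 against 1.603 FPKM in mice 686, 713 and 760). Foxo1 showed the same order, with 4.51 against 12.9, 12.01 against 28.0 and 7.90 against 12.4 FPKM. Stat5b had 17.2 against 22.8, 26.6 against 29.8 and 21.2 against 21.6 FPKM. These genes were picked after their values were seen. Whether the library numbers stand for an order of preparation or a batch was not tested.

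Library 3 of dHet proB stood apart from libraries 1 and 2 in further genes of cytokine response. In library 3, Pim1 had 669.9 FPKM, against 135 and 151 in the others. Pim2 had 117 against 8.74 and 8.36, Socs1 202 against 60.6 and 19.4, and Socs3 50.5 against 2.16 and 3.44 FPKM. In the same library Il7r, Kit and Flt3 were close to library 1, at 119, 89.9 and 2.33 FPKM against 120.4, 108 and 2.88.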
